A study of Drosophila melanogaster with 4 samples.

Results

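The peaks described here are the 303 Homothorax peaks that the authors' peak table places on Uextra. They are 4.88% of the 6207 peaks in that table (95% exact binomial interval 4.36 to 5.45%, counting error only), and 7.91% once peaks closer than 1 kb are merged, which joins many more peaks on the arms than on Uextra. They were chosen solely by the sequence name in the table. Uextra is a sequence of release 5 of the Drosophila melanogaster genome in which small scaffolds without a chromosomal place were joined end to end. A position on it is therefore an address within this joined sequence, and the distance between a pair of peaks is a physical distance only where both lie on a single scaffold. Where one scaffold ends and the next begins was not analysed here.

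The table comes from chromatin immunoprecipitation followed by sequencing (ChIP-seq) of whole embryos, with 2 libraries from a crude guinea pig serum against Homothorax and 2 libraries of input DNA. All 4 libraries came from the strain labelled Y cn bw sp. Its genotype is given as y[1] with oc[R3.2], then Gr22b[1], next to Gr22d[1], with cn[1] and CG33964[R4.2], as well as bw[1] and sp[1], and further LysC[1] with lab[R4.2], then MstProx[1], beside GstD5[1] and Rh6[1]. The embryos, of unknown sex and with no treatment labelled, carry the stage label 0 to 8 h, while the protocol text opens with a later laying window, and they were fixed in 1.8% formaldehyde for 15 min. A whole embryo mixes all its cell types, so a peak cannot be assigned to any of them.

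Homothorax belongs to the TALE group of homeodomain transcription factors. It contacts DNA in a complex with its partner Extradenticle, which it keeps in the nucleus, and the pair helps Hox proteins, the selectors of segment identity, to choose their binding sites. Sequence that an assembly could not place is rich in repeats, because repeated stretches are what an assembler cannot join uniquely, and in flies much of the repeated sequence lies in heterochromatin, the compact chromatin around centromeres and on the Y chromosome. A read from repeated sequence can match several places, so the number of reads at such a place depends on how the aligner and the peak caller treat it. No source used here says how such reads were treated.

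Each peak has a start, an end and a score, written by the peak caller MACS per the file. No source used here says what the score measures, so scores are used to rank and to describe peaks within this one list. The table holds no value for a single library, the read depth is unknown, and a replicate error cannot be given. No test between Uextra and the arms was made, because peaks are not replicates. The spread among the chromosome arms 2L, 3L, 3R and X stands beside many of the values instead, and other values have these arms pooled. Intervals cover counting error only and treat peaks as independent. No sequence or gene annotation of release 5 was used, so nothing is said about genes, exons, introns or UTRs at these positions.

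The Uextra peaks were of intermediate and uniform width. The narrowest was 201 bp, the median 479 bp (95% order-statistic interval 460 to 489 bp) and the widest 1053 bp, with an interquartile range of 373 to 542 bp. The 4869 peaks of the 4 arms had a similar median, 486 bp, but their interquartile range ran from 300 to 893 bp. Uextra had a smaller share of peaks than the arms at both ends of the width range. From 400 to under 600 bp lay 168 Uextra peaks, or 55.4% (interval 49.7 to 61.1%), whereas the arms had 17.2% (3R), 17.7% (2L), 19.9% (3L) and 20.2% (X). Under 300 bp lay 13.2% of Uextra peaks and 24.9% of arm peaks. At 700 bp or more lay 7 Uextra peaks (2.31%) and 34.1% of arm peaks, the lowest arm being X at 26.7%.

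**Figure D1:**
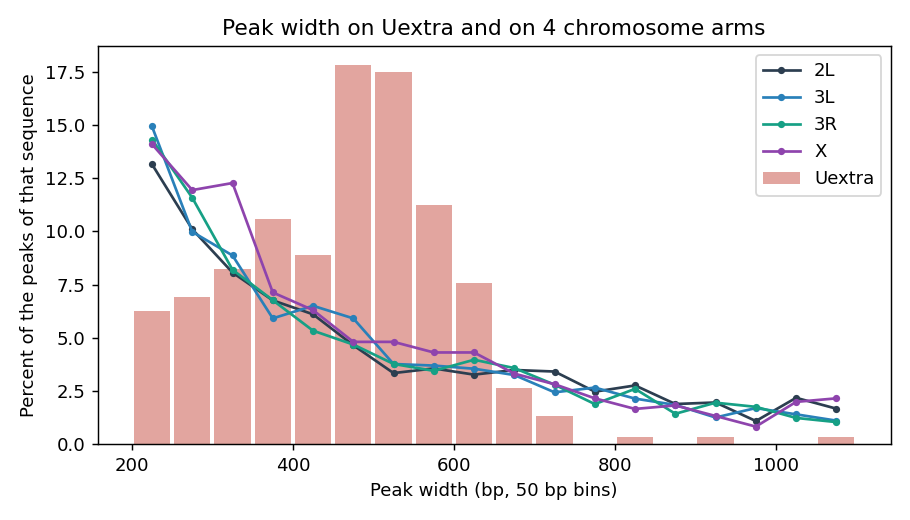
Percent of peaks (y axis) in 50 bp bins of peak width (x axis, bp) on Uextra (bars) and on the arms 2L, 3L, 3R and X (lines). Uextra has its mode between 450 and 550 bp, whereas every arm is highest in the narrowest bin. Arm peaks wider than the axis are counted in the percentages but not drawn.

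The concentration at intermediate width was also seen without the wide arm peaks. When arm peaks wider than the widest Uextra peak were set aside, 3897 arm peaks remained, with a median width of 397 bp. Of these, 23.1% lay from 400 to under 600 bp (21.7 to 24.9% across the 4 arms), still below the 55.4% of Uextra. Under 300 bp lay 31.1% of them (29.7 to 32.6% across the arms), against 13.2% on Uextra.

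Scores varied widely among the widest and among the narrowest Uextra peaks. The widest, at Uextra 4169635 to 4170687, scored 71.59. The second widest, 940 bp at 1070371 to 1071310, scored 16.17, and the next, 814 bp at 7873409 to 7874222, scored 36.13. Width therefore did not order these 3 peaks by score. Among the narrowest, the 201 bp peak at 28765198 to 28765398, which is also the last on Uextra, scored 24.19. The 205 bp peak at 19464252 to 19464456 scored 10.02 and the 206 bp peak at 17297542 to 17297747 scored 18.42. The first Uextra peak, at 216025 to 216254, was 230 bp wide and scored 11.69.

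Scores on Uextra sat in a middle band. They ran from 7.70 to 108.35, with a median of 19.67 (order-statistic interval 19.27 to 20.90) and an interquartile range of 16.55 to 24.74. Scores from 15 to under 30 were held by 207 Uextra peaks (68.3%), whereas among arm peaks up to the same width 33.2% lay in this band (32.0 to 34.2% across the arms). The difference came mainly from low scores. Under 12 lay 27 Uextra peaks (8.91%, interval 5.95 to 12.7%) and 36.7% of arm peaks up to that width (33.8 to 39.5% across the arms). At 40 or more, the shares were close, with 21 Uextra peaks (6.93%, interval 4.34 to 10.4%) and 5.67% of those arm peaks (4.35 to 6.49% across the arms).

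The 10 highest Uextra scores lay from 4.17 to 27.3 Mb. Of these, 6 were in the last of 3 equal segments of Uextra, which held 67 of the 303 peaks. The highest, 108.35, was at 26744675 to 26745394, 720 bp wide, and ranked 228 in the whole list. It was followed by a 636 bp peak at 21942586 to 21943221 with 82.41 and a 532 bp peak at 8312169 to 8312700 with 76.11. These lie in different parts of Uextra. The widest peak, with 71.59, was the fourth by score. The peak at 17038040 to 17038585 scored 66.05, the one at 26324434 to 26325072 scored 64.36, and the one at 15476060 to 15476498 scored 61.38. Their scores lie within 5 units of each other. The last of the 10 were at 22939344 to 22939804 with 61.15, at 27319778 to 27320028 with 60.17, and at 26847507 to 26847988 with 60.09. None of the 10 had another peak centre within 10 kb, the nearest lying 11.6 to 217 kb away, and the same held for 229 of all 303 Uextra peaks. Of the 1000 highest scores in the list, 18 were on Uextra, which held 4.88% of the 6207 peaks. Of its 303 peaks, 222 (73.3%) reached the median score of the list, 16.93, which about 50% of all peaks reach by definition. Neither count is matched for width, and 20.0% of arm peaks were wider than any Uextra peak.

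At matched width, Uextra peaks scored higher than arm peaks. For each Uextra peak, all peaks on 2L, 3L, 3R and X with a width within 10% of its own were collected (288 to 621 peaks, median 451). The Uextra peak scored above the median of its matched arm peaks in 234 of 303 cases, or 77.2% (interval 72.1 to 81.8%), and below it in 68. Arm peaks treated in the same way, each within its own matched set, scored above their matched median in 50.2% of 3897 cases. That share lies near 50% by construction. The typical Uextra peak stood at the 74.8th percentile of its matched arm peaks (order-statistic interval 71.8 to 77.8), with a median excess of 4.42 score units (interval 3.80 to 5.64).

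The excess on Uextra was larger than the differences among the arms. When the peaks of one arm were set against width-matched peaks of the other 3 arms, 45.7% of those on 3R, 50.2% on 2L, 52.1% on X and 54.0% on 3L lay above the matched median. Against single arms, the share of Uextra peaks above the matched median was 81.5% for 2L, 79.5% for 3R, 76.6% for 3L and 69.6% for X. X gave the smallest share and had the lowest peak density of the 4 arms. However, 3L, at 59.0 peaks per Mb, gave a smaller share than 3R, at 55.1. Whether peak density bears on the share was not tested. The share was smaller against isolated arm peaks than against all arm peaks. Against width-matched arm peaks with no other peak centre within 10 kb, a comparison chosen after the data were seen, 67.3% of Uextra peaks lay above the median (interval 61.7 to 72.6%). With both sets limited to the highest-scoring 50% of the list, the share was 57.2% (interval 50.4 to 63.8%). That limit is set on the score being compared, and it kept 222 of the 303 Uextra peaks.

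**Figure D2:**
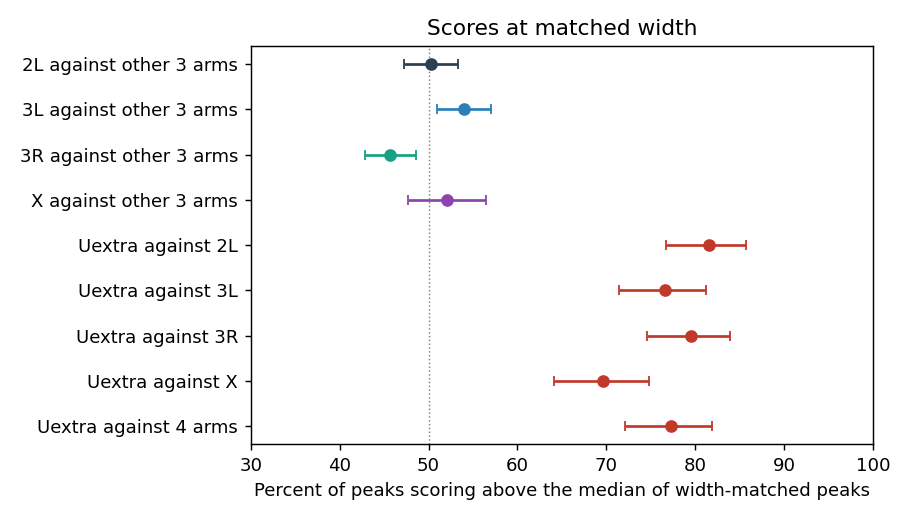
Percent of peaks that score above the median of width-matched peaks (x axis) for each arm against the other 3 arms and for Uextra against each arm and all 4 (rows). Points are percentages, bars 95% exact binomial intervals for counting error, and the dotted line marks 50%. The 4 arms lie between 45.7 and 54.0%, and Uextra lies between 69.6 and 81.5%.

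Low scores for the width were rare on Uextra, and high ones frequent. Above the 90th percentile of their matched arm peaks lay 62 Uextra peaks (20.5%, interval 16.1 to 25.4%), against 10.0% of arm peaks treated alike. Below the 10th percentile lay 3 Uextra peaks (0.990%, interval 0.205 to 2.87%), against 9.73% of arm peaks. A further measure of the upper end is that 14 Uextra peaks (4.62%, interval 2.55 to 7.63%) outscored every matched arm peak, whereas 0.231% of arm peaks outscored every other arm peak of matched width. That arm share likewise follows largely from the number of matched peaks. These 14 were 201 to 439 bp wide and scored 24.19 to 61.38.

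The peaks furthest above their matched arm peaks were mostly those with the highest scores. The excess over the matched median was 85.8 at 26744675 to 26745394, 62.3 at 21942586 to 21943221, and 59.1 at 8312169 to 8312700. The 251 bp peak at 27319778 to 27320028 followed with 49.7, where its 614 matched arm peaks had a median of 10.47. The peak at 17038040 to 17038585 had an excess of 48.9. At the other end, the 940 bp peak at 1070371 to 1071310 scored 16.17 where its matched arm peaks had a median of 31.74. The next lowest were the 672 bp peak at 8670429 to 8671100 with 13.99 against 21.20, and the 450 bp peak at 9403215 to 9403664 with 10.02 against 15.43. The 530 bp peak at 14213253 to 14213782 scored 11.61 against 16.93, and the 501 bp peak at 10557771 to 10558271 scored 11.29 against 16.54. The deficits at this end were smaller in score units. A deficit is limited by the matched median, whereas an excess is not, so their sizes cannot be compared.

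Width ordered the scores less closely on Uextra than on the arms. Spearman's rho between width and score was 0.34 over the 303 Uextra peaks. Over arm peaks up to the same width it was 0.72 (n = 3897), with 0.71 to 0.73 across the 4 arms. These points share the libraries and the peak caller, and the widths are distributed differently. Within 350 to 650 bp, where both sets are well filled, rho was 0.15 on Uextra (n = 223) and 0.30 on the arms (n = 1404), with 0.26 to 0.33 across the arms.

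The Uextra median score exceeded the arm median in each of 10 width classes, by 2.02 to 7.17 score units. The upper figure comes from the widest class, 700 bp or more, with 7 Uextra peaks that scored 16.17 to 108.35 (median 33.63, against 26.46 on the arms). From 250 to under 300 bp, the median score was 17.70 for 21 Uextra peaks and 11.16 for 524 arm peaks, and the single arms had medians of 10.72 to 11.73. From 300 to under 350 bp, it was 18.48 for 25 Uextra peaks and 12.28 for 431 arm peaks. From 400 to under 450 bp, it was 22.15 for 27 Uextra peaks against 15.23 for the arms, with single arms at 13.86 to 15.62. From 500 to under 550 bp, where Uextra had 53 peaks, the medians were 19.67 and 17.09, and the highest single arm, X at 20.07, exceeded Uextra. From 600 to under 700 bp, they were 23.00 and 20.90, and X at 23.01 was level with Uextra. The order-statistic interval of the Uextra median there, 19.27 to 25.18, included the arm median. So did that of the widest class, 16.17 to 108.35, and the excess is not resolved in these classes. In the narrowest class, 200 to under 250 bp, the medians were 11.96 and 9.94.

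**Figure D3:**
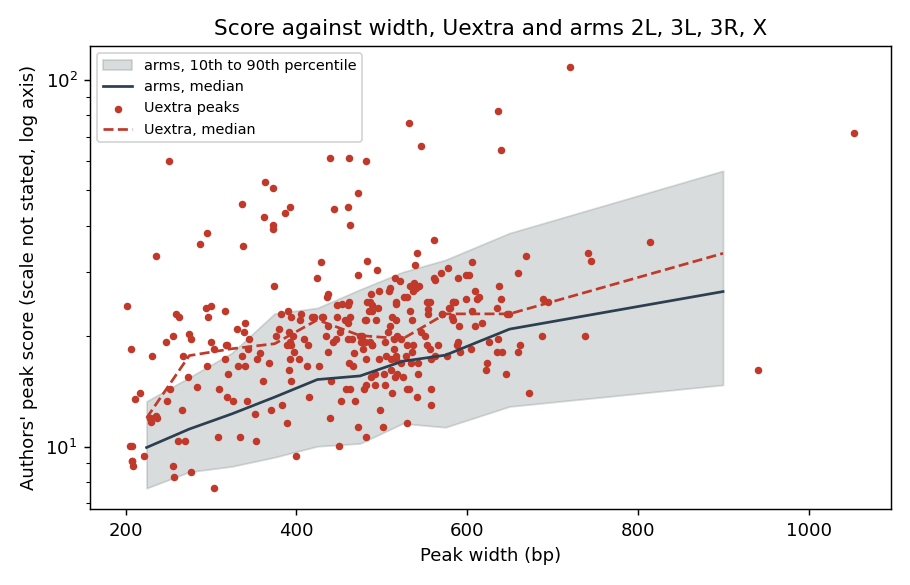
Authors' peak score (y axis, log scale) against peak width (x axis, bp) for the 303 Uextra peaks (points). The solid line is the median and the band the 10th to 90th percentile of arm peaks up to the same maximum width, and the dashed line is the Uextra median, both per width class. The dashed line runs above the solid one in every class, and few points fall below the band.

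Peaks were unevenly spread along Uextra, with most in its middle. The first peak started at 216025 and the last ended at 28765398, and from position 1 to the last peak, a stretch of 28.8 Mb, there were 10.5 peaks per Mb that covered 0.487% of it. On the arms, measured likewise, density was 27.1 per Mb on X and 55.1 to 61.3 per Mb on the other 3. Per window of 1 Mb, tiled from position 1, Uextra held 1 to 24 peaks, with a median of 9 and a mean of 10.4 ± 6.81 (SD over 29 windows). The 93 whole windows of the 4 arms held 51.1 ± 32.9 (SD), and 17 of them held no more than the 24 of the densest Uextra window.

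The 5 windows with the most Uextra peaks all lay between 10 and 17 Mb. The window at 12 to 13 Mb held 24 peaks, that at 15 to 16 Mb 23, that at 14 to 15 Mb 22, and those at 10 to 11 Mb and 16 to 17 Mb 21 each. The 8 windows from 10 to 18 Mb, a range chosen after the counts were seen, held 15 to 24 peaks each and 161 peaks in all (53.1%), on 27.8% of the stretch. The other windows held 1 to 13 peaks. Because the dense range is central, the 2 sides of the midpoint held nearly equal numbers, with 49.5% of peaks beyond it (interval 43.7 to 55.3%). The highest score in these 5 windows varied, from 28.44 at 10 to 11 Mb, 29.76 at 12 to 13 Mb and 30.71 at 14 to 15 Mb to 50.61 at 16 to 17 Mb and 61.38 at 15 to 16 Mb.

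Peaks were narrower in the last part of Uextra. Uextra was divided into 3 segments of 9.59 Mb, which held 60, 176 and 67 peaks. Median width was 514 bp in the first segment (interval 418 to 541 bp), 495 bp in the middle one (480 to 515 bp) and 394 bp in the last (362 to 447 bp). Of the 7 peaks of 700 bp or more, 6 were in the first segment, 0 in the middle and 1 in the last. The middle segment was the most uniform, with 67.6% of its peaks from 400 to under 600 bp, against 35.0% in the first and 41.8% in the last.

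Despite the smaller width, the last segment carried most of the high scores. The median score was 19.27 in the first segment and 20.07 in both others, with overlapping intervals. The 75th percentile was 22.26, 24.74 and 34.12 in the order of the segments. Scores reached 40 in 2 of 60, 5 of 176 and 14 of 67 peaks, or 3.33% (interval 0.406 to 11.5%), 2.84% (0.929 to 6.50%) and 20.9% (11.9 to 32.6%). Of the 10 highest Uextra scores, 6 were in the last segment. Of the 14 peaks that outscored every matched arm peak, 10 were there, 3 in the middle segment and 1 in the first.

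The excess over arm peaks of matched width was present in all 3 segments. The share above the matched median was 75% in the first segment (interval 62.1 to 85.3%), 75% in the middle (67.9 to 81.2%) and 85.1% in the last (74.3 to 92.6%), and these intervals overlap. The median percentile among matched arm peaks was 71.1, 73.7 and 87.2. The range from 23 Mb to the end begins after the last 1 Mb window with a peak not above its matched median. Its 36 peaks therefore all lay above their matched median by that choice, and 11 of them scored 40 or more. Spearman's rho between position and width was -0.22, and between position and score 0.14 (n = 303 peaks for each). Within the segments, rho between width and score was 0.55, 0.40 and 0.09, so width hardly ordered the scores in the last one.

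**Figure D4:**
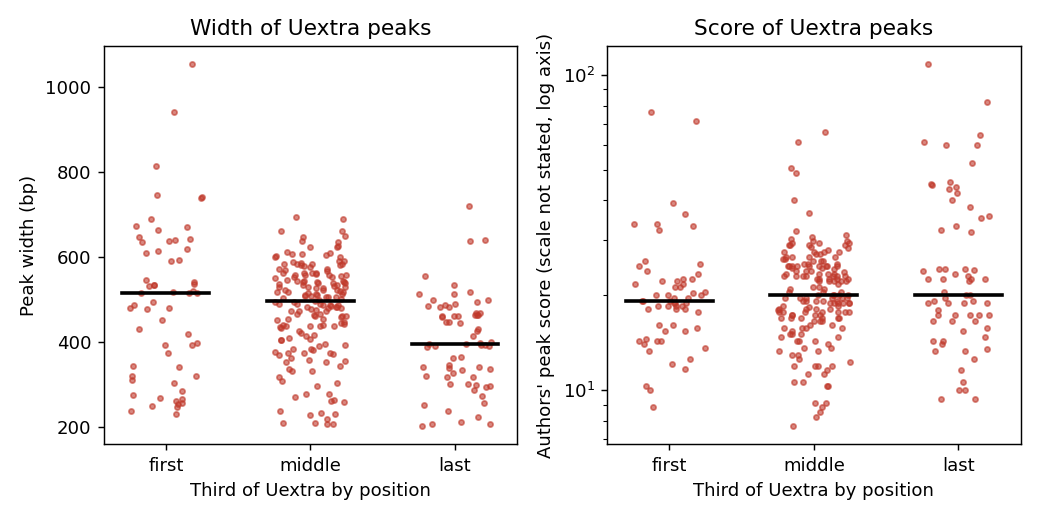
Width in bp (left) and authors' score on a log axis (right) of each Uextra peak, by position in 3 segments of equal length (x axis). Each point is a peak, spread sideways for clarity, and black lines are medians. The last segment has narrower peaks, with a median of 394 bp, and more peaks with a score of 40 or more, 14 of 67.

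Uextra peaks mostly stood alone. The median distance from a peak centre to the nearest other was 27.8 kb on Uextra, with an interquartile range of 10.6 to 67.2 kb. For arm peaks up to the same width it was 1.30 kb, with an interquartile range of 0.754 to 3.51 kb. Another centre within 10 kb was found for 74 Uextra peaks, or 24.4% (interval 19.7 to 29.7%), compared with 81.1% on X, 87.2% on 3R, 88.2% on 3L and 89.3% on 2L. Averaged over the arm peaks matched in width to each Uextra peak, this share was 86.5%. Within 1 kb the shares were 3.96% on Uextra and 39.6% on the arms.

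**Figure D5:**
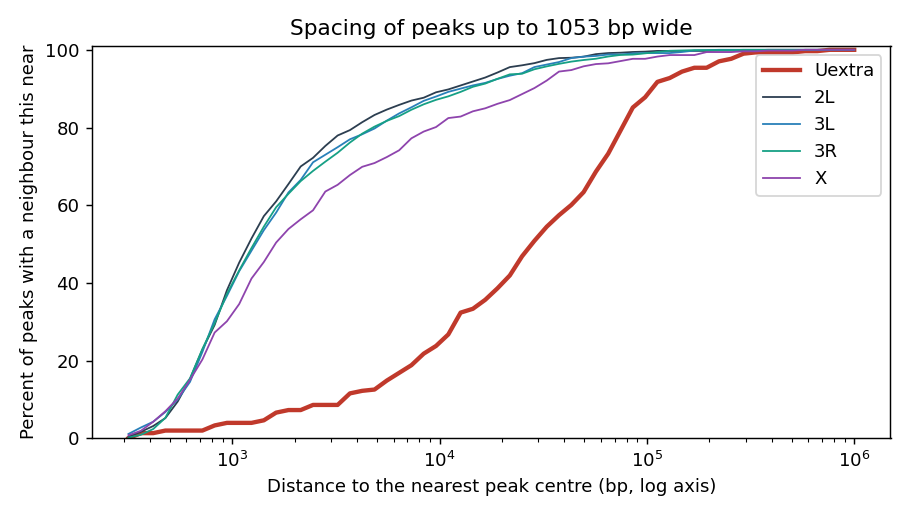
Percent of peaks (y axis) with another peak centre within a given distance (x axis, bp, log scale), for Uextra and for 2L, 3L, 3R and X, each limited to peaks up to the width of the widest Uextra peak. The Uextra curve lies to the right of all 4 arms and reaches 24.4% at 10 kb, where the arms reach 81.1 to 89.3%.

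Peak density also differed between Uextra and the arms, so the share was read in windows of like density. In windows of 1 Mb with 13 to 24 peaks, 62 of 174 Uextra peaks (35.6%, interval 28.5 to 43.2%) had a neighbour within 10 kb. In the 13 arm windows with that many peaks, 152 of the 208 peaks up to the width of the widest Uextra peak did (73.1%, interval 66.5 to 79.0%). The mean number of peaks of any width per window was 19.3 on Uextra and 18.5 on the arms. In windows with 1 to 12 peaks, the numbers were 12 of 129 on Uextra (9.30%) and 16 of 26 on the arms (61.5%, with the same limit on width), the latter from 4 windows. These window classes were chosen after the data were seen. Breaks between scaffolds, which the arms do not have, also separate Uextra peaks, and their part in the difference was not tested.

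Runs of closely spaced peaks were short on Uextra. With gaps of at most 5 kb joining peaks into a run, 260 of 303 Uextra peaks (85.8%) stood alone, against 16.6% of arm peaks. There were 17 pairs and 3 runs of 3 peaks, and no longer run, whereas the longest run on the 4 arms held 56 peaks. The 3 runs lay at 10798834 to 10805979, at 12498640 to 12504207 and at 16982625 to 16989530, all in the dense range. Scores within the second of them were nearly equal, from 19.67 to 20.49, while in the last they ran from 11.94 to 25.63.

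The 3 closest pairs held peaks with scores at most 1.51 apart. The smallest gap, 78 bp, separated the peaks at 13111842 to 13112050 and 13112129 to 13112397, which scored 8.83 and 10.34. A gap of 92 bp separated those at 3437854 to 3438245 and 3438338 to 3438656, with scores of 19.27 and 18.87. A gap of 149 bp separated those at 19463896 to 19464102 and 19464252 to 19464456, which both scored 10.02. Close pairs could also differ in score: a gap of 959 bp separated a peak that scored 50.61 from one that scored 20.07. Under 1 kb lay 7 of the 302 gaps between adjacent peaks. The median gap was 61.7 kb.

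The longest gaps were at the sparse start of Uextra and near 22 Mb. From 1903200 to 2863525 no peak was listed over 960 kb, and from 1208621 to 1902686 over 694 kb. The next, of 650 kb, ran from 22085280 to 22735024. In all, 6 gaps exceeded 500 kb. Whether reads could be placed in these stretches was not analysed here.

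Peaks with and without a close neighbour had similar median widths and scores. The 74 Uextra peaks with another centre within 10 kb had a median width of 468 bp (interval 405 to 488 bp) and a median score of 19.67 (18.87 to 22.15). The other 229 had medians of 482 bp (461 to 498 bp) and 20.00 (18.87 to 21.73). Above the matched arm median lay 79.7% of the former (interval 68.8 to 88.2%) and 76.4% of the latter (70.4 to 81.8%). All 3 pairs of intervals overlap. Close neighbours come in pairs or runs, so these intervals, which treat peaks as independent, cannot show that the sets are alike.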

How the data were processed

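ChIP-seq libraries (2 Homothorax, 2 input DNA) are represented by 1 peak table. Per the file headers, coordinates are on FlyBase release 5 (1-based) and lines were written by MACS. The submitters' processing notes name BDGP5, CASAVA (1.7.0.2 and 1.7.0.3), BWA and MACS2. The score of each peak is as the authors deposited it. Its scale, the calling threshold, replicate pooling and the treatment of multiply matching reads are not stated in those sources. Read depth is unknown.

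Computed here with Python 3.11.15, numpy 2.4.6, pandas 2.3.3, scipy 1.17.1 and matplotlib 3.10.9 were width (end minus start plus 1), centre, nearest-centre distance, gaps, and score percentiles among arm peaks within 10% of the width, ties counted in equal parts above and below. Intervals are exact binomial or order-statistic, at 95%. The matching and the distances were tested on simulated data. Peaks named are the 10 highest scores, 3 widest, 3 narrowest, first and last, 5 furthest above and below matched arm peaks, 5 densest windows, 3 closest pairs and 3 longest gaps. Members and rules were chosen with earlier results of these data known. The gene table at hand describes release 6 and was not used.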

Additional observations from a re-analysis of the deposited data

Results flagged for a closer look

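Apart from Uextra and the arms, the table lists 10 peaks on other sequences of unplaced or heterochromatic scaffolds, 9 on U and 1 on 2RHet. They are noted because they are signal outside the comparison made above, and no control value is listed for them. All 9 peaks on U scored above the median of arm peaks of matched width. Among arm peaks up to the width of the widest Uextra peak, 50.2% did, which is near 50% by construction. Their scores ran from 12.28 to 78.42 with a median of 23.87, and their widths from 249 to 1667 bp with a median of 382 bp. The highest, at U 8286770 to 8288436, was also the widest and stood at the 74.4th percentile of its matched arm peaks. The peaks at U 9989856 to 9990377 and 10006149 to 10006641 scored 61.90 and 53.56, each at the 99.8th percentile. The peak on 2RHet, at 198290 to 198496, scored 13.99 and stood at the 94.5th percentile of its matched arm peaks.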

How the results depend on the processing

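Of 33 alternatives to 6 values, 19 stayed within the interval of the value and 14 moved beyond it. Some alternatives change the quantity itself, such as the neighbour distance or the set of peaks, so the tally does not measure dependence on processing. The share above the matched median stayed above 50% in all alternatives run on it. The share beyond the midpoint, 49.5%, was 50.9% among the highest-scoring 50% of the list. With that restriction, the share of the list on Uextra was 7.15%, median width 491 bp, median score 22.58, and the share above the matched median 57.2%. The restriction selects on the score itself, so the median score must rise, and it left 222 Uextra peaks. Merging peaks closer than 1 kb gave 7.91% of the list. The share above the matched median was 69.6% against X alone, 67.3% against arm peaks without a neighbour, 85.1% in the last segment and 63.2% for Uextra peaks of 600 bp or more (interval 46.0 to 78.2%, which includes 50%). It lay within its interval with widths matched to 5 or 20%, with 2R and 4 added and without the 10 highest scores. A neighbour was found for 13.5% of Uextra peaks within 5 kb and 63.4% within 50 kb. For arm peaks up to the width of the widest Uextra peak, these shares were 79.9% and 97.6%. Within 10 kb, the share was 86.5% for matched arm peaks. For Uextra peaks in windows with 1 to 12 and 13 to 24 peaks, it was 9.30% and 35.6% within 10 kb. Comparisons by segment, width class, window density, run and neighbour-free arm peaks were chosen after the data were seen. No paired analysis was possible because peaks carry 1 score for the whole series, and no replicate could be left out. Read depth is unknown, so no depth limit is given.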

Other observations

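Score values recurred more often on Uextra than on the arms. The 303 Uextra peaks held 109 distinct scores, and 1.41% of all pairs of Uextra peaks had an identical score to 2 decimals, against 0.308% of pairs of arm peaks up to the same width. From 350 to 650 bp, the shares were 1.66% and 0.321%. Uextra scores were also more concentrated, with 68.3% from 15 to under 30, against 33.2% of arm peaks up to the same width. A narrower spread of scores raises the share of identical scores by itself, and how much was not tested. The most frequent Uextra score, 18.87, belonged to 12 peaks, followed by 22.58 with 11, and by 19.27 and 24.74 with 10 each. Of the 303 Uextra peaks, 286 had a score that at least 1 of the 4869 arm peaks also had. The 10 most frequent Uextra values were held by 31.0% of Uextra peaks and 3.90% of arm peaks. From 350 to 650 bp these shares were 34.1% and 6.41%. The values were picked for their frequency on Uextra, which raises the Uextra share by itself.

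Among the 646 pairs of Uextra peaks with an identical score, 3 (0.464%) also had an identical width, close to the 0.624% of such pairs of arm peaks. These pairs were 488 bp with 18.87 at 15266415 to 15266902 and 26082766 to 26083253. The remaining pairs were 571 bp with 23.00 at 11006331 to 11006901 and 17103629 to 17104199, and 583 bp with 24.74 at 15739179 to 15739761 and 16568055 to 16568637. Whether the sequences within a pair are alike was not analysed here.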
